A study of Mus musculus with 12 samples.

Results

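Kat2a and Kat2b are paralogous genes for the lysine acetyltransferases GCN5 and PCAF, and their RNA is described here in embryoid bodies of a Gcn5 floxed and a Gcn5 null mouse line. Both genes were found by matching the Ensembl identifiers of the deposited table, without their version, to gene symbols, which gave 2 members among 18269 genes. Embryoid bodies are aggregates of differentiating embryonic stem cells. All samples were of C57BL/6 strain. The floxed line, 4_1 (Gcn5 fx/fx), carries the gene flanked by recombination sites, and the null line, 4C2, is labelled Gcn5-/-. Each line was harvested after 3 and after 5 days of differentiation. The labels give 3 samples to every one of the 4 groups of line and day, while the series text mentions duplicates. Total RNA was sequenced from stranded libraries.

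Each genotype is represented by 1 cell line, so that genotype and line cannot be told apart. A p-value between genotypes reflects how far the samples within a line scatter, and nothing in the labels says whether they came from separate cultures. The labels give neither the exons flanked by the recombination sites nor how the null line was derived. Reads per library numbered 23090915 to 29446068 in the floxed line and 18022071 to 26803369 in the null line. Pluripotency genes were detected in all 12 libraries, with a summed level of 7 markers of 30993 to 44350 normalised reads in floxed day 3, 24792 to 38564 in null day 3, 9197 to 17306 in floxed day 5 and 4000 to 8615 in null day 5. Feeder fibroblast markers, of which 12 of 14 were in the table, summed to 1125 to 1602 at day 3 and 2760 to 5074 at day 5 over both lines. These sums rested on few genes. In floxed day 3, Fbn1 alone gave 701 to 836 of 1125 to 1307. In floxed day 5, Col1a2 reached 854 to 2469 and Cdh11 545 to 1033, both above their day 3 ranges, while Thy1 lay below its day 3 range.

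GCN5 and PCAF transfer acetyl groups to lysines of histones and other proteins and recognise acetyl-lysine through a bromodomain. Either of them, but not both at once, occupies the catalytic place in the coactivator complexes SAGA and ATAC, where it sits in a module with an ADA2 adaptor, TADA3 and SGF29. GCN5 is required for normal development of the mouse embryo, whereas mice without PCAF are viable, and loss of both genes is more severe than loss of GCN5 alone.

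Kat2a (ENSMUSG00000020918.14) lies on the minus strand of chromosome 11 at 100704746 to 100712465 in mm10, a span of 7720 bases, and its longest coding transcript, Kat2a-202, has 18 exons. Kat2b (ENSMUSG00000000708.14) lies on the plus strand of chromosome 17 at 53566861 to 53672720, a span of 105860 bases, and its transcript Kat2b-201 also has 18 exons. The coding sequences, 2490 bases in Kat2a and 2439 in Kat2b, had a GC content of 57.3% and 49.9%. Aligned to each other they were identical at 72.2% of 2392 paired positions. Of the paired bases, 70.9% were identical over the first 830 bases of the Kat2a coding sequence, where 9.88% of the bases had no partner, and 70.3% and 75.3% over the following stretches of the same length. The longest run of bases shared without a mismatch by the transcripts was 19 bases, which bears on whether reads of one paralog could be counted for the other. The stretch of 120 bases with the most identical letters is shown because it is where the paralogs are hardest to tell apart: 100 of its bases were identical (83.3%), and the 20 positions at which the genes differ are in capitals. It spans exons 10 and 11 in both genes, chr11:100708305-100708635 on the minus strand and chr17:53653142-53654469 on the plus strand, introns included, and was read from the GENCODE M21 transcripts of mm10.
Kat2a: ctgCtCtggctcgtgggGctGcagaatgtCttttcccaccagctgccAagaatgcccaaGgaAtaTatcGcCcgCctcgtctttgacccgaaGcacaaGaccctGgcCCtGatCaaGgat
Kat2b: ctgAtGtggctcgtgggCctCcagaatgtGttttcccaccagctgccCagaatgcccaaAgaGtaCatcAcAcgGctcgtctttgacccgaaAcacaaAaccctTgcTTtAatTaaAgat

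**Figure D1:**
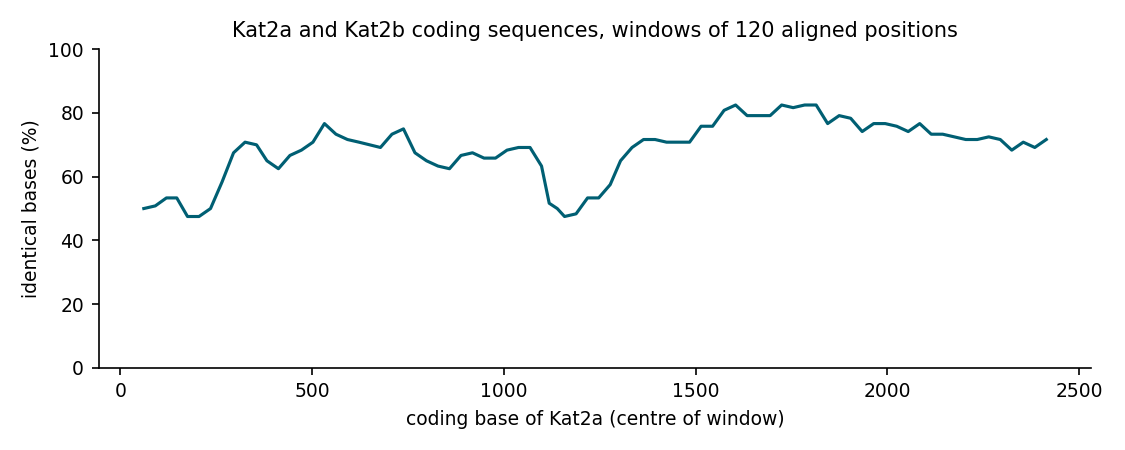
Percentage of identical bases between the Kat2a and Kat2b coding sequences (vertical axis) in sliding windows of 120 aligned positions, with positions that lack a partner counted as not identical, against the coding base of Kat2a at the window's centre (horizontal axis). Identity is lowest near the start and near the middle of the coding sequence and highest in the stretch that follows, where the 120-base window printed above lies.

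Kat2a, the gene labelled as deleted, was measured first as a check of the labels. At day 3 its normalised read count, the read count divided by the size factor of its library, was 2077, 2226 and 2380 in the floxed samples and 649, 614 and 840 in the null samples. At day 5 it was 2161, 2391 and 2071 in floxed and 739, 852 and 860 in null samples. Every null sample lay below every floxed sample on both days, as the labels would have it, and no null sample came near 0. Such separation of 3 samples from 3, here and below, also occurred in genes that did not pass the test, such as Tada2a at day 5. Its share over all genes is not given here.

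The mean was 2228 ± 151 (SD, n = 3) in floxed and 701 ± 122 in null samples at day 3, and 2207 ± 165 and 817 ± 67.5 at day 5. The null samples therefore held 31.5% ± 5.46 of the floxed level at day 3 and 37.0% ± 3.06 at day 5. These levels rested on 459 to 965 reads per null library against 2076 to 2853 per floxed library. The values count reads over the whole gene, so they do not show which exons the remaining reads of the null line came from. In bulk samples such as these, fewer cells of a type and less RNA per cell cannot be told apart.

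On the log2(value + 1) scale Kat2a fell in the null line by 1.68 ± 0.11 (SE) at day 3 (95% interval -1.92 to -1.43, adjusted p = 1.01e-05, limma). At day 5 it fell by 1.43 ± 0.11 (-1.68 to -1.19, adjusted p = 1.6e-05). The adjusted p-values are Benjamini-Hochberg values over all 17000 genes tested, and a gene was called changed below 0.05. At this threshold 2.03% of the genes tested were lower in the null line at day 3 and 13.5% at day 5. The 1041 genes called in either direction at day 3 became 1866 with the replicate number as a block. Of the 1041, 66.9% were higher, against 47.0% of the calls made with chromosome 11 centred. Only 2 of the 17000 genes had a smaller p than Kat2a at day 3, and 11 did at day 5. By size, 39 genes had a more negative change at day 3 and 267 at day 5. The rest of chromosome 11 moved the other way: its 1332 genes tested had a median log2 change of 0.36 at day 3 and 0.33 at day 5. Taken relative to that median, the change of Kat2a was -2.04 at day 3 and -1.76 at day 5.

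Between days the Kat2a level did not pass the test in either line. In the floxed line the log2 change from day 3 to day 5 was -0.01 (95% interval -0.26 to 0.23, adjusted p = 0.937). In the null line it was 0.23 (-0.02 to 0.48, adjusted p = 0.118), and the samples of the 2 days overlapped because null day 3 replicate 3, at 840, lay within the day 5 range. Without that library the change was 0.37 with an adjusted p of 0.0102, so this comparison turned on 1 sample. The difference between the genotype effects at the 2 days was 0.24 ± 0.16 (adjusted p = 0.540).

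Kat2b was not labelled as altered in either line. At day 3 its normalised read count was 1520, 1542 and 1232 in the floxed samples and 1421, 1770 and 1594 in the null samples, and the groups overlapped. At day 5 it was 995, 675 and 883 in the floxed samples and 1695, 1711 and 1856 in the null samples. Here the groups stood apart, with the lowest null sample 700.1 normalised reads above the highest floxed sample.

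The mean of Kat2b was 1431 ± 173 in floxed and 1595 ± 174 in null samples at day 3, a log2 change of 0.16 ± 0.14 (95% interval -0.13 to 0.45, adjusted p = 0.533). That value was 0.053 without floxed day 3 replicate 3 and 0.080 without null day 3 replicate 2, and reached 0.24 without null day 3 replicate 1; none of these passed. At day 5 it was 851 ± 163 in floxed and 1754 ± 88.4 in null samples. The log2 difference between lines of 1.06 ± 0.14 (0.77 to 1.35, adjusted p = 0.000276) put the null samples at 206% ± 10.4 of the floxed mean. Among all genes tested 4.09% were higher in the null line at day 3 and 13.0% at day 5, and 170 genes had a smaller p than Kat2b at day 5. Leaving out 1 library at a time, the day 5 change ranged from 0.90 without floxed day 5 replicate 2, the lowest sample, to 1.18 without floxed day 5 replicate 1, and it passed the test each time. Without all 4 libraries numbered 3 it was 1.05 (adjusted p = 0.00383).

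**Figure D2:**
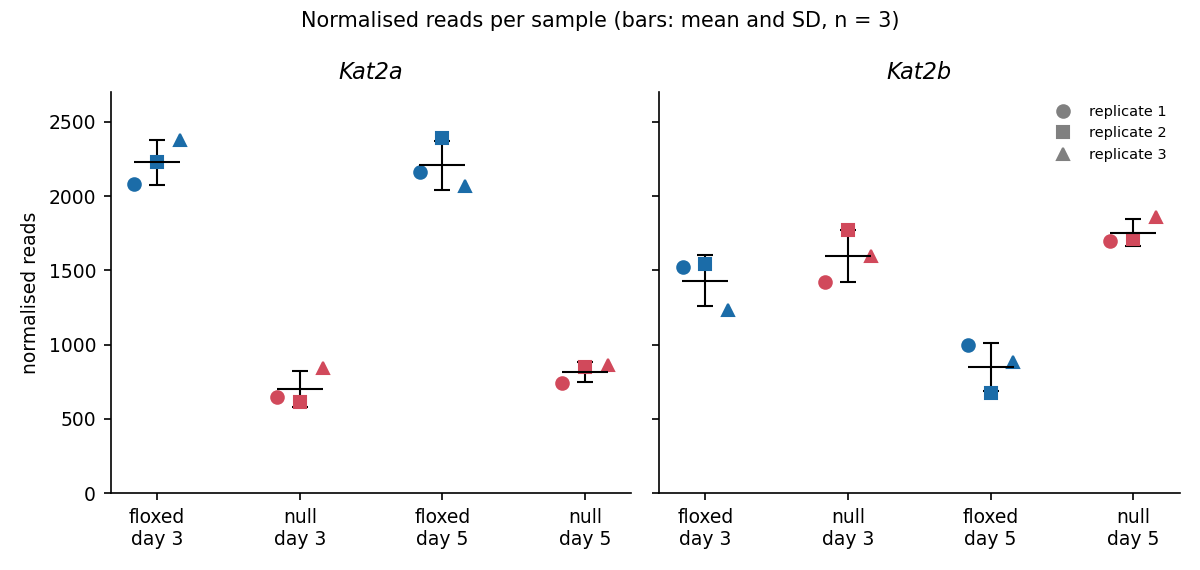
Normalised reads (vertical axis) of Kat2a and Kat2b in each of the 12 samples, by line and day, with replicate numbers as symbols; bars show the mean and SD of 3 samples. Kat2a separates the lines on both days, while Kat2b separates them at day 5, where the floxed samples lie between 675 and 995 and the null samples between 1695 and 1856.

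The course over days shows where the day 5 difference in Kat2b lay. From day 3 to day 5 Kat2b fell in the floxed line by 0.76 ± 0.14 on the log2 scale (95% interval -1.05 to -0.47, adjusted p = 0.000662), and no day 5 sample reached the lowest day 3 sample. In that contrast 19.2% of the genes tested were lower and 22.5% higher at day 5. In the null line the change was 0.14 ± 0.14 (-0.15 to 0.43, adjusted p = 0.421), or 0.061 without null day 3 replicate 1 and 0.22 without null day 3 replicate 2, against 22.6% of genes higher and 21.9% lower. The floxed day 5 samples enter both the fall over days and the difference between lines at day 5, so these results are not independent of each other.

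A test of whether the genotype effect on Kat2b differed between days gave a log2 difference of 0.90 ± 0.19 (95% interval 0.49 to 1.31). Its adjusted p of 0.0595 missed the threshold, which 0.476% of the genes tested passed (81 genes, with 443 when the replicate number was added as a block). Of the 81, 51.9% were positive, against 64.7% with upper-quartile scaling. The block gave Kat2b an adjusted p of 0.0357. With DESeq2 on the recovered reads the adjusted p was 0.00196. Over all 23 alternatives the adjusted p lay between 0.00196 and 0.153, and 4 of them passed, including the fits without floxed day 3 replicate 3 (0.0389) and without floxed day 5 replicate 1 (0.0444). The difference itself was positive in all of them, from 0.74 to 1.02.

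Ordered by level, Kat2a stood highest in floxed day 3 and floxed day 5, which did not differ beyond their spread, and lower in null day 5 and null day 3, which did not pass the test against each other. Kat2b ran from null day 5 through null day 3 and floxed day 3 to floxed day 5. In that order the neighbours null day 5 and null day 3, and null day 3 and floxed day 3, did not differ beyond their spread, and floxed day 3 and floxed day 5 did.

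Cell type markers moved with the comparison of the lines at day 5 and with those of the days. At day 3, none of the 7 pluripotency, 6 neural, 5 mesoderm and 6 endoderm markers tested was called between the lines. Over all genes 4.09% were higher and 2.03% lower there. At day 5, 5 of 7 pluripotency markers and 3 of 6 neural markers were lower in the null line and none was higher. Over all genes tested 13.5% were lower and 13.0% higher. Of 5 mesoderm and 6 endoderm markers tested at day 5, 1 in each list was lower and 0 were higher. The summed neural level was 4450 to 8061 in floxed and 2186 to 3587 in null samples. From day 3 to day 5 in the floxed line, where Kat2b fell, 5 of 7 pluripotency markers fell and 1 rose, and 5 of 6 neural and 6 of 6 endoderm markers rose. In the null line 5 pluripotency markers fell, 4 neural markers rose and 6 endoderm markers rose over the same days, while Kat2b did not pass the test. Of 5 mesoderm markers, 1 rose and 1 fell in the floxed line, and 1 rose and 2 fell in the null line. Of 11 feeder markers, 7 rose and 1 fell in the floxed line, and 6 rose and 1 fell in the null line. Over all genes 22.5% rose and 19.2% fell in the floxed line, and 22.6% and 21.9% in the null line. Between lines, feeder fibroblast markers gave 3 higher and 0 lower of 11 tested at day 3 and 2 higher and 1 lower at day 5. Over all genes 4.09% were higher and 2.03% lower at day 3, and the day 5 feeder counts were close to the share of all genes. The part of these markers in the Kat2a and Kat2b results was not tested.

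To set the paralogs side by side, their values were divided by the length of their annotated exons, 3480 bases for Kat2a and 4867 for Kat2b. The same lengths were used in the null line, although the labels do not give the Kat2a exons removed there. The Kat2a levels, ranks, ratios and sums per kilobase of that line therefore hold only for the full annotated length. Per kilobase of exon, Kat2a was at 640 ± 43.4 in floxed day 3, 202 ± 35.0 in null day 3, 634 ± 47.4 in floxed day 5 and 235 ± 19.4 in null day 5. The Kat2b level per kilobase was 294 ± 35.6, 328 ± 35.8, 175 ± 33.5 and 360 ± 18.2 in the same order. The order of the genes was thus opposite in the lines: the Kat2a level was above that of Kat2b in all 6 floxed samples, and below it in all 6 null samples.

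The ratio of Kat2a to Kat2b per kilobase was 2.21 ± 0.429 in floxed day 3 and 3.76 ± 1.05 in floxed day 5, and 0.620 ± 0.127 and 0.651 ± 0.0432 in the null groups. Among the genes tested with an exon length, the floxed day 3 level of Kat2a was above that of 88.5% and the null day 3 level above that of 68.2%. At day 5 the figures for Kat2a were 88.9% in floxed and 71.5% in null samples. Kat2b ranked above 75.7% of genes in floxed day 3, 77.9% in null day 3, 64.2% in floxed day 5 and 80.4% in null day 5. In the null line the reads of both paralogs per kilobase of full annotated exon thus remained above the level of most genes tested. These values do not show whether the remaining Kat2a reads came from complete transcripts.

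The summed level of both paralogs per kilobase was 909, 957 and 937 in the floxed day 3 samples and 478, 540 and 569 in the null day 3 samples. At day 5 the sum was 825, 826 and 777 in floxed and 561, 596 and 628 in null samples. Every null sum lay below every floxed sum. The null mean was 56.6% of the floxed mean at day 3 and 73.6% at day 5. Kat2b made up 31.5% ± 3.93 of the sum in floxed day 3 and 21.6% ± 4.26 in floxed day 5, against 62.0% ± 4.94 and 60.6% ± 1.58 in the null groups. Set against the lower Kat2a mean of the null line, its higher Kat2b mean amounted to 7.67% of that drop at day 3 and 46.4% at day 5. The day 3 difference in Kat2b did not pass the test. From day 3 to day 5 Kat2b per kilobase went from 294 to 175 in floxed and from 328 to 360 in null samples. These sums describe RNA; the members were fixed by name, so no test is attached to their sum or share. With the length of 1 coding transcript in place of all exons, the null sum was 55.2% and 71.1% of the floxed sum.

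**Figure D3:**
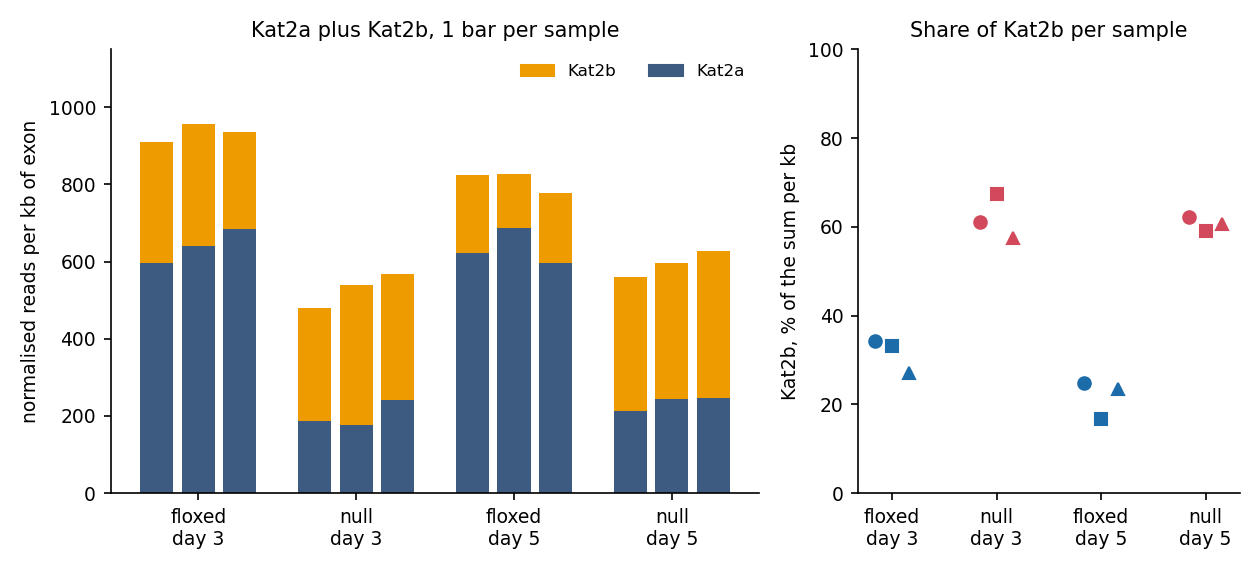
Left, normalised reads per kilobase of exon of Kat2a and Kat2b stacked for each of the 12 samples; right, the percentage of that sum from Kat2b in each sample (circles, squares and triangles are replicates 1, 2 and 3). The Kat2b share lies between 16.8% and 34.3% in floxed samples and between 57.6% and 67.3% in null samples.

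The 4 genes for the subunits that hold GCN5 or PCAF in its module gave 1 higher at day 3 and 1 lower at day 5 in the null line. Over all genes tested 4.09% were higher at day 3 and 13.5% lower at day 5. Tada2a, the ADA2 adaptor gene of ATAC, lies on chromosome 11 and was higher in the null line at day 3 (1336 ± 72.3 to 1673 ± 24.5 normalised reads, log2 change 0.33, adjusted p = 0.0125). Relative to the chromosome's median that difference was -0.03 and the call was lost, as it was without all 4 libraries numbered 3 (adjusted p = 0.133). At day 5 Tada2a did not pass (0.07, adjusted p = 0.475), and relative to the chromosome it was -0.26 with an adjusted p of 0.0145. Tada2b, the corresponding adaptor gene of SAGA, did not pass at day 3 (0.09) and was lower at day 5, from 544 ± 31.9 to 424 ± 13.8 normalised reads (-0.36, adjusted p = 0.00985). Without all 4 libraries numbered 3 that adjusted p was 0.0671. It shares 411 bases with Grpel1 on the other strand, and whether strand was used in counting is not given in the sources used here. Tada3, the scaffold of the module, and Sgf29, its reader of methylated histone H3, passed at neither day (0.04 and -0.17 for Tada3, 0.04 and -0.29 for Sgf29). With the replicate block the day 5 difference of Sgf29 passed (adjusted p = 0.0375).

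Over days, Tada2a fell in the floxed line (-0.35) and in the null line (-0.60), and Tada3 rose in the floxed line (0.42). The change of Tada3 in the null line, 0.21, missed the threshold (adjusted p = 0.0612) but passed with the replicate block (0.0447), with TMM or upper-quartile scaling, and without floxed day 3 replicate 3 (0.0408). Tada2b rose in the floxed line (0.30), a call lost without floxed day 5 replicate 1 (adjusted p = 0.0555). Sgf29 fell in the null line (-0.40), and the fits that left out either the third null sample of day 3 (adjusted p = 0.0780) or the first of day 5 (0.0838) did not call it. The limma test of a difference between the genotype effects at the 2 days passed for 0 of these 4 genes (2 at an unadjusted p under 0.05, and 1 with DESeq2). Among all genes 0.476% passed it.

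Across the SAGA and ATAC subunits listed with Kat2a and Kat2b set aside, 28 of 29 were tested, Taf9 not being analysed here. At day 3, 3 were higher in the null line and 0 lower, beside 4.09% and 2.03% of all genes, with a median log2 change of -0.05 against -0.00 over all genes tested. The 3 were Tada2a, Usp22, the deubiquitinase of SAGA (0.44), and Taf9b, which encodes a histone-fold subunit (0.72). Usp22 and Tada2a are on chromosome 11, and without that chromosome 1 of 25 was higher and 0 lower. Taf9b rose from 145 ± 10.5 to 243 ± 51.2 normalised reads, and its adjusted p of 0.0299 lay above 0.05 without floxed day 3 replicate 1 (0.0904), floxed day 3 replicate 2 (0.0964), null day 3 replicate 2 (0.0579) or null day 3 replicate 3 (0.119). Relative to its chromosome's median Usp22 was 0.08 and its day 3 call was lost. By DESeq2, and with the replicate block, the count of lower subunits at day 3 was 1 and 2 in place of 0. The edgeR count was 0, and 3 subunits were lower at an unadjusted p under 0.05.

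At day 5, 1 subunit was higher and 6 were lower in the null line, beside 13.0% and 13.5% of all genes, with a median of -0.11 against -0.02 over all genes tested. The higher one was again Usp22 (0.29), which relative to its chromosome's median was -0.04 and not called, and without chromosome 11 the counts were 0 and 6 of 25. Among the 6 lower ones, Taf5l, a WD-repeat subunit of the SAGA core, went from 1930 ± 95.2 to 1321 ± 98.8 normalised reads (-0.55, adjusted p = 0.000618). Tada1, another core subunit, went from 794 ± 91.2 to 499 ± 87.2 (-0.68, adjusted p = 0.00707), and it shares 9000 bases with Pogk on the other strand. Eny2, of the deubiquitinase module, was lower by -0.40 and shares 266 bases with Nudcd1, and Tada2b was the fourth. Without all 4 libraries numbered 3 Eny2 was not called (adjusted p = 0.0718). The remaining 2, Sf3b3 (-0.24), a subunit shared with the splicing machinery that overlaps Cog4 by 188 bases, and Wdr5 (-0.21), a subunit of ATAC and of methyltransferase complexes, were the smallest. Usp22, Sf3b3 and Wdr5 fall outside the rule for named genes at day 5 and were named after their values were seen. Without all 4 libraries numbered 3, the count of lower subunits was 2 in place of 6.

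Over days, 5 SAGA and ATAC subunits rose and 4 fell in the floxed line, and 3 rose and 8 fell in the null line. Over all genes 22.5% rose and 19.2% fell in the floxed line and 22.6% and 21.9% in the null line, so the floxed counts were close to the share of all genes. With the replicate block 5 rose in the null line. In the floxed line Tada1 rose by 0.81, beside Tada3, and Tada2a and Wdr5 (-0.28) fell. In the null line Tada2a, Wdr5 (-0.39), Sf3b3 (-0.39) and Taf5l (-0.46) fell. Tada1 was also called higher in the null line (0.62) and Sf3b3 lower in the floxed line (-0.19), so these changes were not limited to 1 line. Taf5l did not pass in the floxed line (-0.08). The test of a difference between the genotype effects at the 2 days passed for 0 of the 28 subunits with limma (4 at an unadjusted p under 0.05), and for 0 with edgeR and 1 with DESeq2, which was Tada2b. With limma 0.476% of all genes passed, so a count of 0 is close to that share.

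The other acetyltransferases, 17 genes of the p300/CBP, MYST and further families, could be tested in full. At day 3, 1 was higher and 0 were lower in the null line with limma, edgeR and DESeq2 alike (1 lower at an unadjusted p under 0.05), beside 4.09% and 2.03% of all genes. The higher gene was Kat7, the MYST-family acetyltransferase of histone H3 and H4, which went from 5470 ± 185 to 7121 ± 392 normalised reads (0.38, adjusted p = 0.0048). At day 5, 4 were higher and 3 lower, beside 13.0% and 13.5% of all genes, with a median of -0.06 against -0.02 over all genes tested. Ncoa1, a nuclear receptor coactivator, rose from 523 ± 48.0 to 832 ± 75.2 normalised reads (0.67, adjusted p = 0.00104), and Kat7 was again higher (0.39). Gtf3c4, a subunit of the RNA polymerase III factor TFIIIC, was lower by -0.34 and Elp3, the catalytic subunit of Elongator, by -0.31. Kat7 lies on chromosome 11, and relative to that chromosome its change was 0.02 at day 3 and 0.07 at day 5 and the calls were lost. Ep300 and Crebbp, for p300 and CBP, passed at neither day (0.07 and 0.17 for Ep300, 0.01 and -0.04 for Crebbp).

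**Figure D4:**
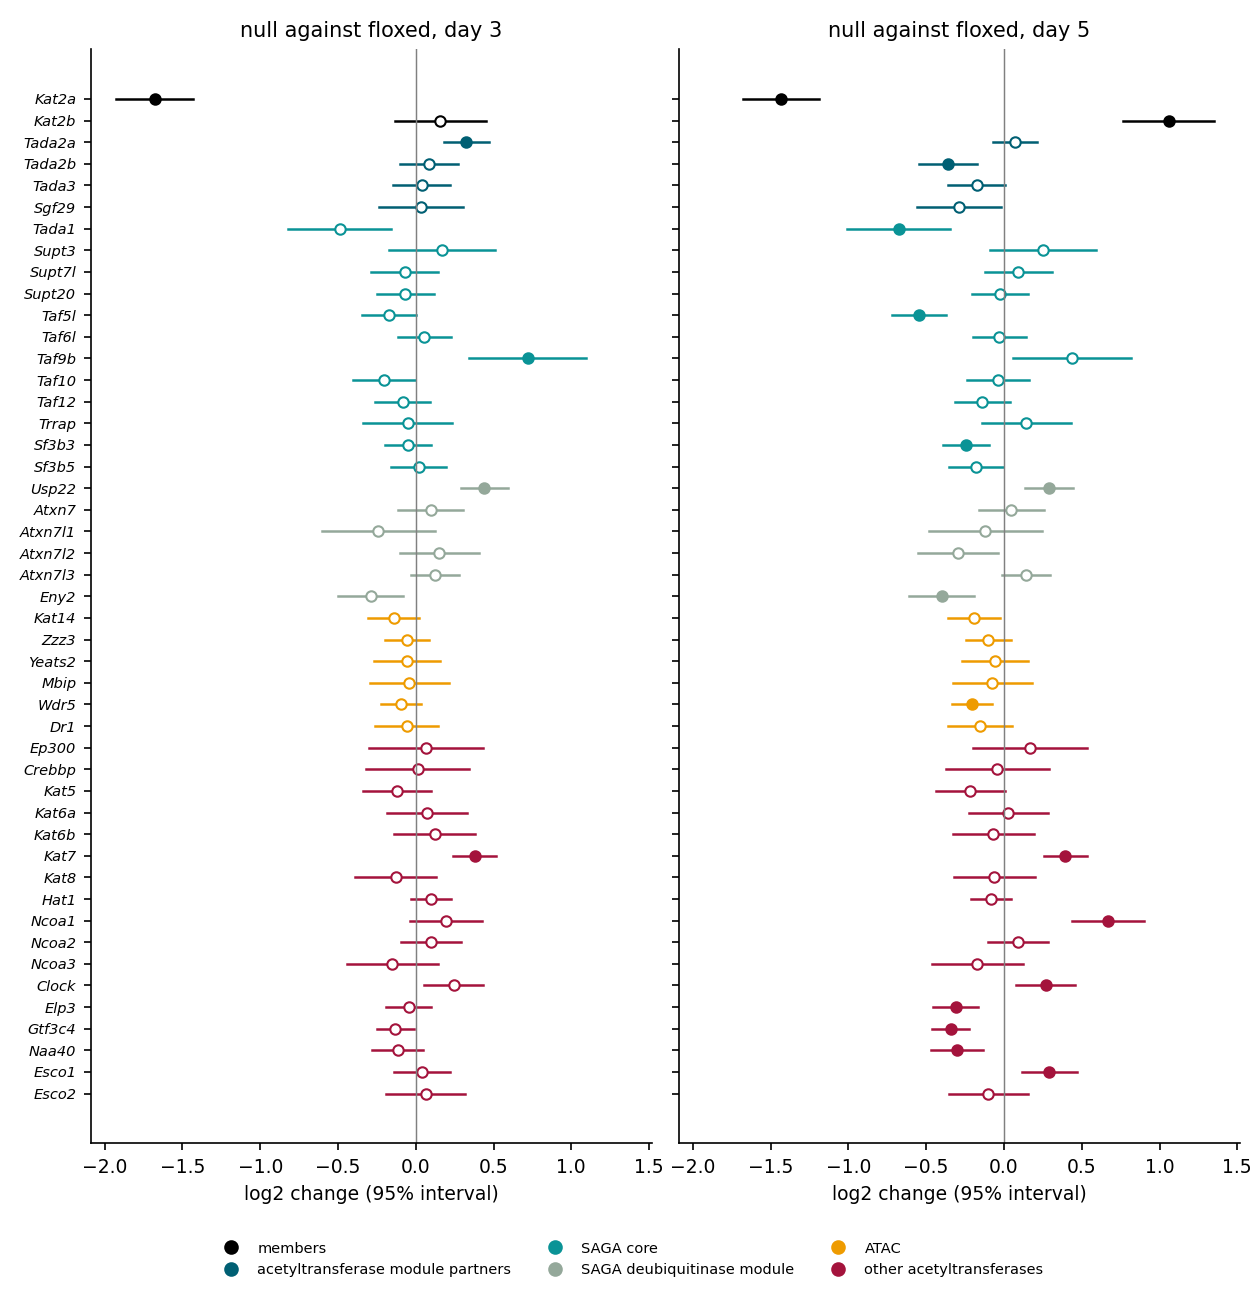
Log2 change of null against floxed samples (horizontal axis, with 95% intervals) at day 3 and day 5 for Kat2a, Kat2b, the subunits of SAGA and ATAC and other acetyltransferase genes; filled points passed the test at an adjusted p under 0.05. Kat2a lies at -1.68 and -1.43, and at day 5 Kat2b lies at 1.06, beyond the other genes shown, which range from -0.68 to 0.67 at that day.

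Between days the other acetyltransferases gave 4 higher and 5 lower in the floxed line, beside 22.5% and 19.2% of all genes, and 2 higher and 4 lower in the null line, beside 22.6% and 21.9%. Kat7 fell in both (-0.44 and -0.42), as did Esco2, the cohesin acetyltransferase of S phase (-0.72 and -0.89). Esco1, its relative, fell in the floxed line (-0.46), where Naa40, an acetyltransferase of histone N termini, rose (0.38). In the null line their changes were -0.21 and 0.19 and did not pass. Hat1, which acetylates newly made histone H4, fell in the null line (-0.45) and was also called lower in the floxed line (-0.27). Ncoa2 rose in both, by 0.33 in the null line and 0.34 in the floxed line. The test of a difference between genotype effects passed for 0 of the 17 with limma (5 at an unadjusted p under 0.05), 0 with edgeR and 0 with DESeq2. This too is close to the 0.476% of all genes that passed with limma.

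The genes beside Kat2a on chromosome 11 were examined in order. Dhx58, for the RNA helicase LGP2, lies 474 bases from Kat2a and was higher in the null line, from 34.8 ± 7.02 to 71.0 ± 5.01 normalised reads at day 3 (1.02, adjusted p = 0.0257) and from 19.9 ± 3.47 to 44.8 ± 9.05 at day 5 (1.13, adjusted p = 0.00517). Rab5c, an endosomal GTPase gene 2543 bases away on the other side, was higher at 0.47 and 0.34, followed by Ghdc (0.48 and 0.65) and the transcription factor gene Stat5b (0.61 and 0.59). Zfp385c and Nkiras2, beyond Dhx58, passed at neither day. Of the 6 neighbours, 4 rose on both days and 0 fell. Over chromosome 11 as a whole, 30.3% of the genes tested were higher in the null line at day 3 and 41.3% at day 5, against 0.225% and 2.63% lower.

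These neighbour calls were less firm than that of Kat2a. At day 3 the Dhx58 call was lost in 5 of the fits that each leave out 1 library, namely each day 3 library except floxed replicate 3 (adjusted p = 0.0517 to 0.0996). Rab5c lost its day 3 call without floxed replicate 1 (0.0906), null replicate 2 (0.0551) or null replicate 3 (0.0801), and its day 5 call without any 1 of the 6 day 5 libraries (0.0567 to 0.0957). Ghdc lost its day 3 call without any day 3 library except null replicate 2 (0.0517 to 0.120), and Stat5b without floxed replicate 1 (0.0732), floxed replicate 2 (0.0654) or null replicate 3 (0.0821). Relative to the median of chromosome 11 all 4 lost their day 3 calls, with 0.67 for Dhx58 (adjusted p = 0.153), 0.11 for Rab5c (0.602), 0.12 for Ghdc (0.626) and 0.25 for Stat5b (0.330). On that scale at day 5 Dhx58 was 0.81 and passed (adjusted p = 0.0288), and Rab5c (0.01), Ghdc (0.33) and Stat5b (0.27) did not.

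The surroundings of Kat2b differed. Its nearest tested genes, Sgo1, the cohesin protector gene 2065 bases beyond its end, and Rab5a, 59180 bases before its start, passed at neither day. Sgo1 changed by -0.04 at day 3 and by -0.02 at day 5, with 95% intervals of -0.21 to 0.12 and -0.18 to 0.14. For Rab5a the values were -0.15 (-0.35 to 0.05) and -0.01 (-0.21 to 0.19). The day 5 intervals of Sgo1 and Rab5a lay below that of Kat2b (0.77 to 1.35), as did those of Slc5a7 (-1.48 to 0.02) and St6gal2 (-0.85 to -0.08). Those of Efhb (-0.32 to 0.80) and Kcnh8 (-0.83 to 0.92) overlapped it. Whether the region as a whole changed was not tested. Of the further neighbours, Efhb, Kcnh8 and St6gal2 passed at neither day, and the choline transporter gene Slc5a7, 600869 bases away, was lower at day 3 (-1.30, adjusted p = 0.0433) at 25.9 ± 6.82 against 10.3 ± 4.33 normalised reads. That call was lost in 10 of the 12 fits that leave out 1 library, kept only without floxed day 5 replicate 3 or null day 3 replicate 2. The pseudogene Gm6919 lies within Kat2b on the other strand and has no row in the table.

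**Figure D5:**
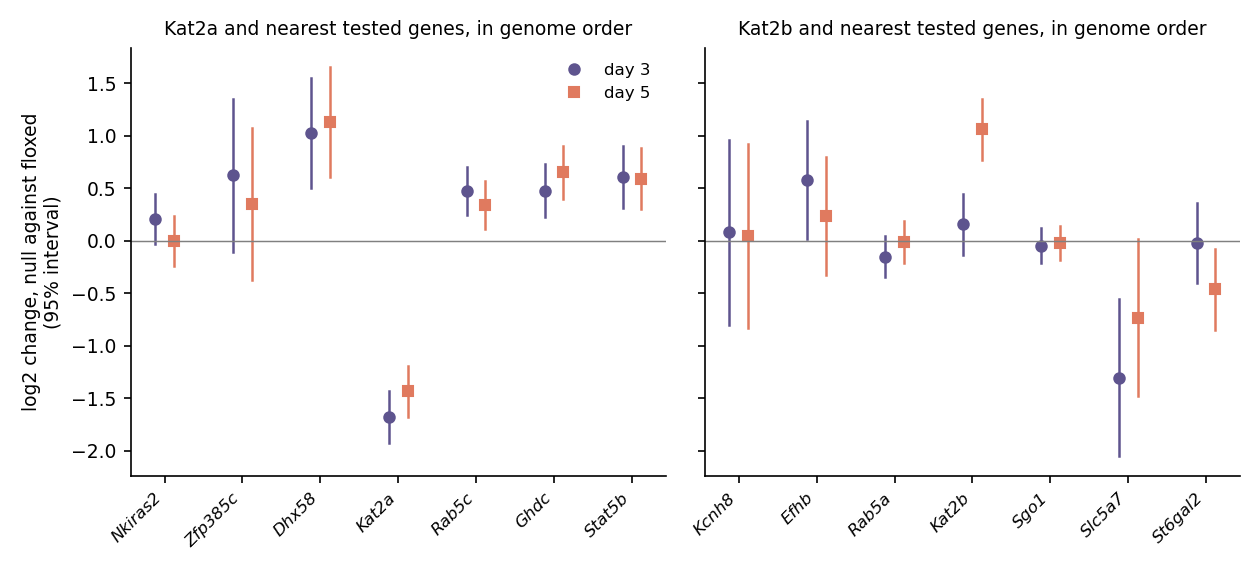
Log2 change of null against floxed samples (vertical axis, with 95% intervals) at day 3 and day 5 for Kat2a and Kat2b and the 3 nearest tested genes on each side, in genome order and not to scale. Kat2a stands below its neighbours on both days, and Kat2b stands above its neighbours at day 5.

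Genes whose levels ran most like each paralog over the 12 samples were listed as a description, over 11490 genes; the samples share line and day, so such a correlation follows the groups. Closest to Kat2a were H13, a signal peptide peptidase gene (Pearson r = 0.970), Ube2m, a NEDD8-conjugating enzyme gene (0.950), Pkdcc (0.949), the glypican gene Gpc1 (0.944) and Pcbp4 (0.943). H13 went from 1182 ± 169 in floxed to 576 ± 46.2 in null samples at day 3 and from 1429 ± 60.4 to 630 ± 29.0 at day 5. The most opposite genes were Ggnbp2 (-0.971), Fignl1 (-0.956) and Aftph (-0.956), which all lie on chromosome 11 and were higher in the null line on both days.

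Closest to Kat2b were Cyct, the testis form of cytochrome c (r = 0.939), Procr, the protein C receptor gene (0.928), Acot1 (0.922), Tmem87a (0.922) and Adgre5 (0.913). Acot1, an acyl-CoA thioesterase gene, had the Kat2b pattern in full, with 929 ± 80.4 in floxed day 3, 1070 ± 76.7 in null day 3, 592 ± 47.3 in floxed day 5 and 1102 ± 42.4 in null day 5. Cyct stood at 427 ± 39.2, 718 ± 67.3, 188 ± 40.5 and 599 ± 52.4 in the same order and so, unlike Kat2b, was also higher in the null line at day 3 (0.75, adjusted p = 0.00935). The most opposite were Ap2a2 (-0.961), Ice1 (-0.933) and the polarity gene Pard3 (-0.928), which were highest in floxed day 5. Neither paralog was among the genes listed for the other.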

How the data were processed

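Values in the deposited table are signal: read counts that the authors scaled by 1 size factor per library, with a row for each gene and a column for each sample. The tools named, per the submitters' processing notes, were DESeq 1.16.0, HTSeq 0.6.0, TopHat2 2.0.10 and CASAVA 1.8.2, with mm10 as genome build; their roles are not given. Per the labels' protocols, libraries were stranded and made with 8 PCR cycles. All nonzero values were whole multiples of 1 read's worth in their library (100% at a tolerance of 0.01), and whole reads were recovered from them. Of 18269 identifiers, 18199 matched GENCODE M21, which also gave exon lengths, positions and transcripts.

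Log2(value + 1) was tested by limma-trend (R 4.3.3, limma 3.58.1), fitting the 4 group means to all 12 samples (residual degrees of freedom 8, prior 5.00). Genes entered if their mean reached 10 in any group, which 17000 did and 1269 did not. Tests were two-sided, with Benjamini-Hochberg adjustment over all genes tested. The alternatives were edgeR 4.0.16 and DESeq2 1.42.0 on recovered reads, other pseudocounts, filters and scalings, a replicate block, chromosome 11 centring, and left-out libraries. The limma step was first tested on simulated data with known changes. Coding sequences were aligned globally, and the 120-base window was searched without gaps.

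Same-numbered null and floxed samples deviated together across genes (r = 0.270 to 0.372 at day 3 and 0.247 to 0.424 at day 5), as did those of the null line between days (0.123 to 0.282), so the numbers were taken to pair the samples there. The test above has no pairing; the pairs enter only the fit with the replicate block. For the floxed line between days r was 0.0814 to 0.214. This pairing comes from the data, not from the labels.

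Kat2a and Kat2b, the gene lists and the neighbours were chosen with earlier results of these data known. The genes named were both members, the 4 module partners, at most 4 called genes per list and contrast with the smallest p, the 3 nearest tested genes on each side, and for each member the 5 genes most alike and 3 most opposite by Pearson r among tested genes whose highest group mean reached 100, leaving out clone-type names.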

Additional observations from a re-analysis of the deposited data

How the results depend on the processing

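The lower Kat2a level of the null line at both days and its higher Kat2b level at day 5 passed in all 24 alternatives each. So did the fall of Kat2b over days in the floxed line, and all kept their direction. Kat2a ranged from -2.04 to -1.59 at day 3 and from -1.76 to -1.36 at day 5, and Kat2b from 0.90 to 1.18 at day 5. Without all 4 libraries numbered 3, the change of Kat2a over days was 0.080 in the floxed line and 0.33 in the null line, where it then passed. With single libraries left out it ran from -0.073 to 0.035 and from 0.14 to 0.37. The difference of the Kat2b genotype effects between days passed with DESeq2 (0.89) and with the replicate block (0.90), and ran from 0.74 to 1.02 with single libraries left out. The block changed no other call of Kat2a or Kat2b, and among the other named genes it added Sgf29 at day 5 and Tada3 over days in the null line.

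With chromosome 11 centred, Tada2a was -0.033 at day 3 and -0.26 at day 5. Without all 4 libraries numbered 3, Sgf29 was -0.0064 at day 3 and Sgo1 0.033 at day 5. For Rab5a at day 5 TMM scaling gave 0.0050, upper-quartile scaling 0.034 and edgeR 0.0022, and upper-quartile scaling gave 0.027 for Sgo1. With single libraries left out, the day 3 change ran from -0.012 to 0.12 for Tada3, -0.044 to 0.087 for Sgf29 and -0.093 to 0.020 for Sgo1, and the day 5 change from -0.052 to 0.058 for Rab5a and -0.049 to 0.027 for Sgo1. None of these genes passed the test in the main comparison, except Tada2a at day 3, and the cause of these shifts was not tested.

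Genes changed at day 3 numbered 1041, against 1696 with DESeq2, 1866 with the replicate block, 647 with only the 2 groups compared, 460 with chromosome 11 centred, 382 without all 4 libraries numbered 3 and 426 to 1133 with single libraries left out. At day 5 the count was 4509, and 2592 without all 4 libraries numbered 3. For the difference between days it was 81, against 511 with DESeq2, 443 with the replicate block, 35 without all 4 libraries numbered 3 and 3 to 115 with single libraries left out. Each fit with 1 library left out had fewer degrees of freedom than the full fit. Its count for the difference between days was 3 without floxed day 3 replicate 1 and 115 without floxed day 3 replicate 3. The cause of this spread was not tested.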
